A study of Gallus gallus with 16 samples.

Results

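The regions described here are 12029 intronic stretches of chick lens chromatin that were listed as carrying H3K27ac under low oxygen and not under normal oxygen. H3K27ac is acetylation of lysine 27 of histone H3. The regions were selected on peak presence in the H3K27ac lists. A region entered if it was a unique interval of the hypoxia H3K27ac list, if its annotation began with an intron, and if it overlapped no interval of the normoxia H3K27ac list by 1 bp or more. The 4 lists, for H3K27ac and H3K4me3 in each condition, held 108520 unique peaks in all. Of 45734 hypoxia H3K27ac peaks in any annotation class, 80.7% overlapped no normoxia peak, and among the intronic ones the share was 84.9%. Because these shares were used to choose the regions, they are a description and no finding.

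The study profiled lens fiber cells of embryonic day 13 White Leghorn chicks by CUT&RUN, in which an antibody tethers a nuclease that cuts out the chromatin it binds. By their labels, lenses spent 2 h at 21% oxygen (normoxia) or at 1% oxygen (hypoxia), every library came from a pool of 10 to 15 lenses, and no genetic change is named for either group. H3K27ac had 2 libraries per condition and H3K4me3 had 3, and the IgG control libraries, 3 per condition, were not analysed here. The extraction text speaks of 0 h or 2 h of hypoxia, so whether the normoxia lenses were also held in culture cannot be told from the labels. The libraries of a mark and condition are represented by a single list without peak heights, so no difference below has a replicate check and no p-value is given. The read depth behind each list is unknown. In pooled tissue, a mark gained in every cell and a larger share of cells that carry it cannot be told apart. Coordinates are galGal6, counted from 1.

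Fiber cells make up the bulk of the lens. They elongate, fill with crystallins and finally destroy their organelles, in a tissue that has no blood vessels. H3K27ac is laid down by the acetyltransferases p300 and CBP and marks promoters and enhancers in use, while H3K4me3 marks mainly promoters. Introns, above all long ones, hold many enhancers, which can act on the gene around them or on a neighbour. In low oxygen, hypoxia-inducible factors (HIFs) are no longer degraded and bind promoters and enhancers of genes for glycolysis, blood vessel growth and mitophagy.

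The labelled tissue was checked against marker genes. Of 23 gene IDs for lens fiber structural proteins (crystallins, beaded filament proteins, lens connexins and others), 22 had an H3K27ac promoter peak in hypoxia and 20 in normoxia. For markers of other tissues the counts in hypoxia were 5 of 13 for retina and neurons, 4 of 11 for blood and endothelium, 2 of 11 for cornea and periocular mesenchyme, and 1 of 7 for pigment epithelium. In normoxia they were 1, 2, 0 and 0. Lens epithelium, the cell layer from which fibers arise, had 9 of 10 markers with such a peak in hypoxia and 4 in normoxia. Over all 14180 genes, 30.8% had such a peak in both lists, 30.8% in hypoxia alone and 3.96% in normoxia alone. More markers of other cell types thus carried the mark in the hypoxia list, as more genes in general did, and their part in the results below was not tested.

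The hypoxia-only intronic peaks were narrow beside those present in both conditions. Their median width was 438 bp (95% interval of the median 430 to 447 bp), with the middle of the distribution between 227 and 731 bp. The 2132 intronic hypoxia peaks that did overlap a normoxia peak, here called shared, had a median of 1148 bp (1094 to 1190 bp). The opposite class, 1874 intronic peaks of the normoxia list that overlapped no hypoxia peak (42.3% of its intronic peaks), had a median of 341 bp (326 to 360 bp). Hypoxia-only peaks outside introns had a median of 402 bp for 9647 distal intergenic peaks and 650.5 bp for 2656 exonic peaks, so the exonic ones were wider than the intronic ones. A wide peak has more chances to meet a peak of the other list, so width and the rule are tied. When the hypoxia list was reduced to its 15511 widest peaks, as many as in normoxia, the median of the hypoxia-only intronic peaks was 1071 bp, a value that this choice by width itself raises.

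The narrowest class, under 250 bp, held 28.0% of the hypoxia-only intronic peaks, 5.44% of the shared peaks and 35.6% of the normoxia-only peaks. At the other end, 201 hypoxia-only peaks (1.67%) reached 2000 bp, against 506 shared peaks (23.7%). Peaks at the edge of the rule resembled each other. The 123 hypoxia-only peaks with a normoxia peak less than 100 bp away had a median width of 589 bp, and the 199 shared peaks with an overlap of at most 100 bp had a median of 541 bp. H3K4me3 of either list overlapped 43.1% of the former and 47.7% of the latter.

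**Figure D1:**
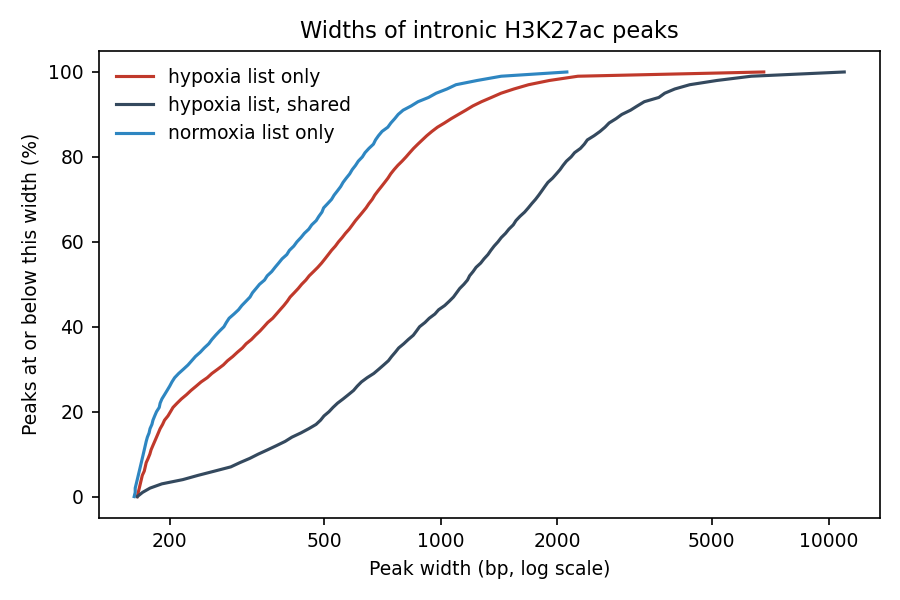
Share of intronic H3K27ac peaks (vertical axis, %) at or below a given width (horizontal axis, bp, log scale) for hypoxia-only, shared hypoxia and normoxia-only peaks. The hypoxia-only curve, with a median of 438 bp, lies close to the normoxia-only curve (341 bp) and far to the left of the shared curve (1148 bp).

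Most hypoxia-only intronic peaks lay some distance from the H3K27ac of normoxia. The median gap to the nearest normoxia peak was 14.1 kb, with the middle of the distribution from 4.63 to 42.0 kb, and 8.46% lay within 1 kb. At 10 kb the share was 42.2%, and at 50 kb it was 78.4%. The 1874 normoxia-only intronic peaks were much nearer to a hypoxia peak, at a median of 1.57 kb, but the hypoxia list has more peaks to be near to, 45734 against 15511. Intergenic hypoxia-only peaks had a median gap of 31.5 kb and exonic ones of 10.1 kb.

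The peaks began more than 5 kb from any annotated transcription start, because the authors' annotation gives nearer peaks to promoter classes. The median distance to the nearest start was 21.1 kb, and the same measure was 20.9 kb for shared and 20.9 kb for normoxia-only intronic peaks. The 3 medians were close together. For 9061 of the 12029 peaks (75.3%) the nearest start was that of the gene whose intron held the peak, and for 2968 (24.7%) it was another gene's.

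First introns held 2691 of the hypoxia-only peaks, or 22.4% (95% Wilson interval 21.6 to 23.1%). If every intron of each annotated transcript were equally likely, the share would be 11.3%. Intron lengths are not in the table, first introns tend to be long, and the part of length was not tested. Shared peaks had 29.7% (27.8 to 31.7%) in the first intron and normoxia-only peaks 23.6% (21.8 to 25.6%). From the first to the second intron the hypoxia-only share went to 16.7%. Introns of rank 10 or above held 20.6% of hypoxia-only, 14.0% of shared and 20.2% of normoxia-only peaks, and the last intron held 9.74%, 9.94% and 11.0%. Hypoxia-only peaks were thus spread along genes much as normoxia-only peaks were. With all widths together they lay less towards the first intron than shared peaks, which are wider. Under 250 bp, first introns held 20.5% of hypoxia-only and 25.9% of shared peaks. The shares were 21.8% and 24.0% from 250 to under 500 bp, and 22.3% and 30.9% from 500 to under 1000 bp. From 1000 to under 2000 bp they were 26.8% and 27.9%, and at 2000 bp or more 35.8% and 34.8%. The intervals cover the counting of peaks alone.

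**Figure D2:**
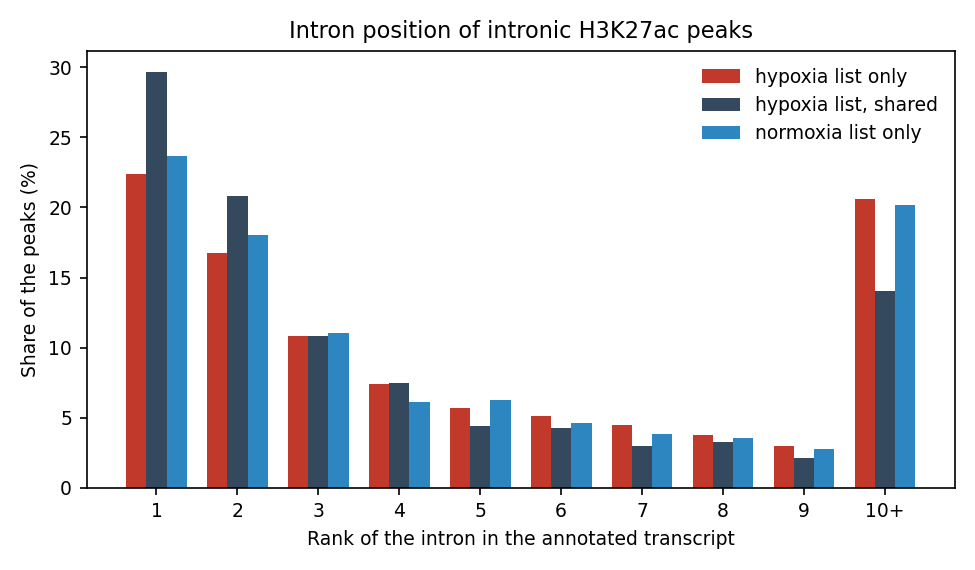
Share of intronic H3K27ac peaks (vertical axis, %) by rank of the intron in the annotated transcript (horizontal axis), for hypoxia-only, shared hypoxia and normoxia-only peaks. The first intron holds 22.4% of hypoxia-only, 29.7% of shared and 23.6% of normoxia-only peaks, and the bars at 10 or above pool all later introns.

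The 12029 peaks fell in 8098 introns of 4263 genes, 30.1% of the 14180 genes to which the table assigns any peak of either mark. A gene with hypoxia-only peaks held a median of 2 and a mean of 2.82. A single such peak was found in 1871 genes (43.9%). The 1505 genes with 3 or more (35.3%) together held 69.7% of the peaks, and the 686 genes with 5 or more (16.1%) held 46.6%. At the upper end, 162 genes had 10 or more and 12 genes had 20 or more. Nearly every second peak (49.2%) shared its intron with another hypoxia-only peak, and 256 introns held 5 or more. Long genes offer more intron to fill, and gene length is not in the table. Among the widest hypoxia peaks, as many as normoxia had, 2608 hypoxia-only intronic peaks in 1595 genes were left, and 14.9% of these genes held 3 or more.

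Many of these genes had H3K27ac in normoxia as well. A normoxia peak was assigned to a gene by nearest start or by the intron or exon holding it. Of the 4263 genes, 1298 (30.4%) had no normoxia H3K27ac peak so assigned, and these held 19.9% of the hypoxia-only peaks. Such a gene may still have normoxia H3K27ac nearby, as at SDHA, where a normoxia peak overlapped the promoter peak. In the reduced list of widest peaks the share of such genes was 18.6%. The matching share over all 14180 genes is not given here. At promoters, H3K27ac stood in both lists for 39.9% of host genes and 30.8% of all genes. It stood in the normoxia list alone for 3.38% and 3.96%. The number of hypoxia-only peaks was larger in genes with more normoxia peaks. Long genes can hold more peaks of either list, and gene length was not adjusted for. The median was 1 in genes with no assigned normoxia peak, 2 with 2 to 4, 4 with 5 to 9 and 9 in the 124 genes with 10 or more. Of the 1273 genes with normoxia-only intronic peaks, 1060 (83.3%) held a hypoxia-only intronic peak too, beside 30.1% of all genes. Gene length was not adjusted for here either. Peaks of both kinds in a gene are counts of regions and do not give a net change of acetylation.

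KIAA1217, whose mouse counterpart (sickle tail) is needed for the intervertebral discs, had the most hypoxia-only intronic peaks of any gene. It held 41, covering 29264 bp, beside 10 shared and 16 normoxia-only intronic peaks. MAGI2, a scaffold protein of cell junctions, had 35, with 5 shared and 4 normoxia-only. TRPM3, a cation channel whose mutation is linked to inherited cataract in humans, had 28, with 20 shared and 4 normoxia-only. The share of intronic hypoxia peaks that were hypoxia-only was 80.4% in KIAA1217, 87.5% in MAGI2 and 58.3% in TRPM3. Over all intronic hypoxia peaks it was 84.9%.

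The other genes with the most hypoxia-only peaks had varied functions. ABLIM1, an actin-binding LIM protein, had 27 hypoxia-only peaks, 2 shared and 3 normoxia-only. ANK3, the membrane skeleton adaptor ankyrin G, had 22, 4 and 5. PARD3, a polarity protein of apical junctions, had 20, 1 and 4. Of their intronic hypoxia peaks, 93.1%, 84.6% and 95.2% were hypoxia-only, beside 84.9% of all intronic hypoxia peaks. The axon and synapse gene NRXN3 had 19 hypoxia-only peaks spread over 863 kb, with 1 shared and no normoxia-only peak. Other genes of this size class were the RNA-binding translation regulator MSI2 (27), the secreted protein gene SCUBE1 (24), the lipid kinase gene DGKB (22) and the nuclear kinase gene HIPK2 (20). Of their intronic hypoxia peaks, 77.1%, 60%, 88% and 64.5% were hypoxia-only, in that order.

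Growth factor receptors gave opposite pictures. IGF1R, the receptor for insulin-like growth factor 1, had 19 hypoxia-only intronic peaks against 2 shared and no normoxia-only peak, and no H3K27ac promoter peak in either list. FGFRL1, an FGF receptor relative without a kinase domain, also had 19, but with 23 shared and 9 normoxia-only peaks. The share of hypoxia-only peaks was 90.5% in IGF1R and 45.2% in FGFRL1, beside 84.9% of all intronic hypoxia peaks. Of the 19 peaks in IGF1R, 12 lay over H3K4me3, against 3 of 19 in FGFRL1. The nearest annotated start was PGPEP1L, not IGF1R, for 12 of the IGF1R peaks.

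**Figure D3:**
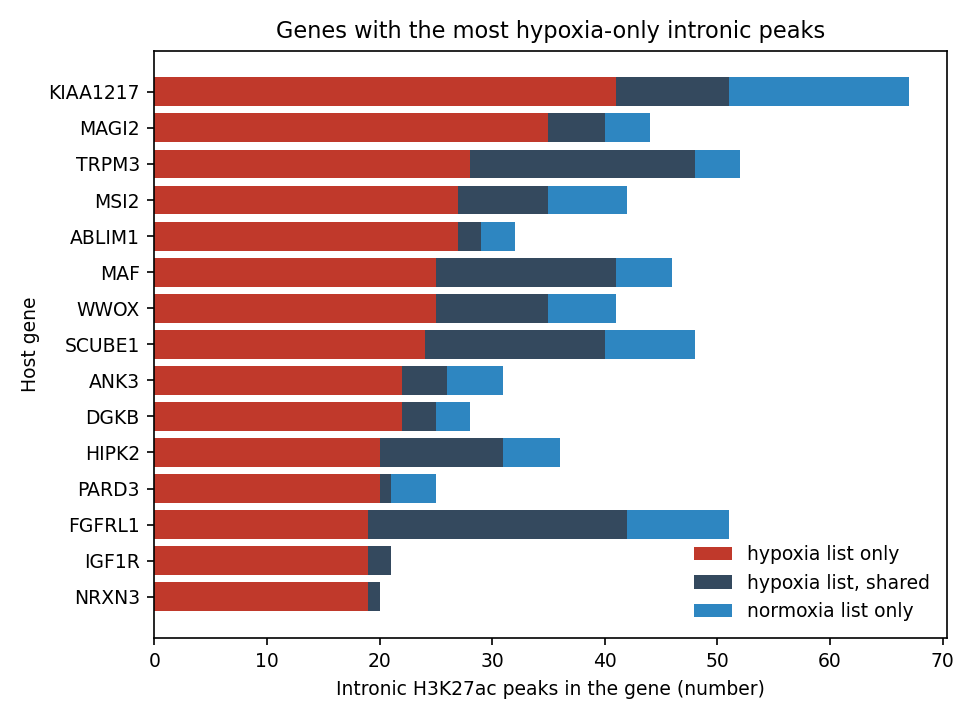
Number of intronic H3K27ac peaks (horizontal axis) in each of the 15 genes with the most hypoxia-only peaks (vertical axis), stacked as hypoxia-only, shared hypoxia and normoxia-only. KIAA1217 leads with 41 hypoxia-only peaks, and FGFRL1 is the single gene of the 15 with fewer hypoxia-only peaks (19) than shared ones (23).

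The MAF locus held the largest number of hypoxia-only peaks in a single annotated intron. MAF is a bZIP transcription factor that switches on crystallin genes in fiber cells. Its annotated intron 2 of 2 held 24 hypoxia-only peaks from 14544384 to 14674668 on chromosome 11, a span of 130 kb. The gene had 25 in all beside 16 shared and 5 normoxia-only intronic peaks. Of the intronic hypoxia peaks of MAF, 61.0% were hypoxia-only, below the 84.9% of all intronic hypoxia peaks. The widest of the 25 measured 2849 bp (14617705 to 14620553) and lay over no H3K4me3 peak, with the nearest normoxia H3K27ac peak 2802 bp away. Next to it on the chromosome, intron 8 of 8 of WWOX, an oxidoreductase with WW domains, held 21 hypoxia-only peaks over 263 kb. Of all 25 peaks in WWOX, 8 had MAF as the nearest start, 14 had the unnamed gene ENSGALG00000050479 and 3 had WWOX itself. The hypoxia-only share of intronic hypoxia peaks was 71.4% in WWOX.

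TRPM3 held the widest hypoxia-only intronic peak of all, 6809 bp in intron 1 of 24 (chromosome Z, 35253619 to 35260427). It overlapped H3K4me3 of the normoxia list over 856 bp and none of the hypoxia list, and the nearest normoxia H3K27ac peak lay 1577 bp away. A second wide peak of 3738 bp lay beside it, at 35248831 to 35252568, with no H3K4me3. The 28 peaks covered 27717 bp of a span of 167 kb and stood between 20 shared peaks, so the locus was already acetylated in normoxia at many places. The nearest start was KLF9, a zinc finger transcription factor gene, for 19 of the 28.

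In KIAA1217 the 41 peaks were spread over 270 kb, and 17 of them lay in the first of 18 introns. A run of 10 within 35.5 kb (chromosome 2, 17177757 to 17213270) covered 10908 bp, and 9 of these 10 overlapped H3K4me3. For the gene as a whole 13 of 41 did. CTNNA1, which encodes alpha-catenin and links cadherins to actin, had 12 hypoxia-only peaks, 3 shared and 4 normoxia-only. Its widest, 4847 bp in intron 1 of 17 (chromosome 13, 3434930 to 3439776), overlapped H3K4me3 of both lists and lay 879 bp from a normoxia H3K27ac peak.

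**Figure D4:**
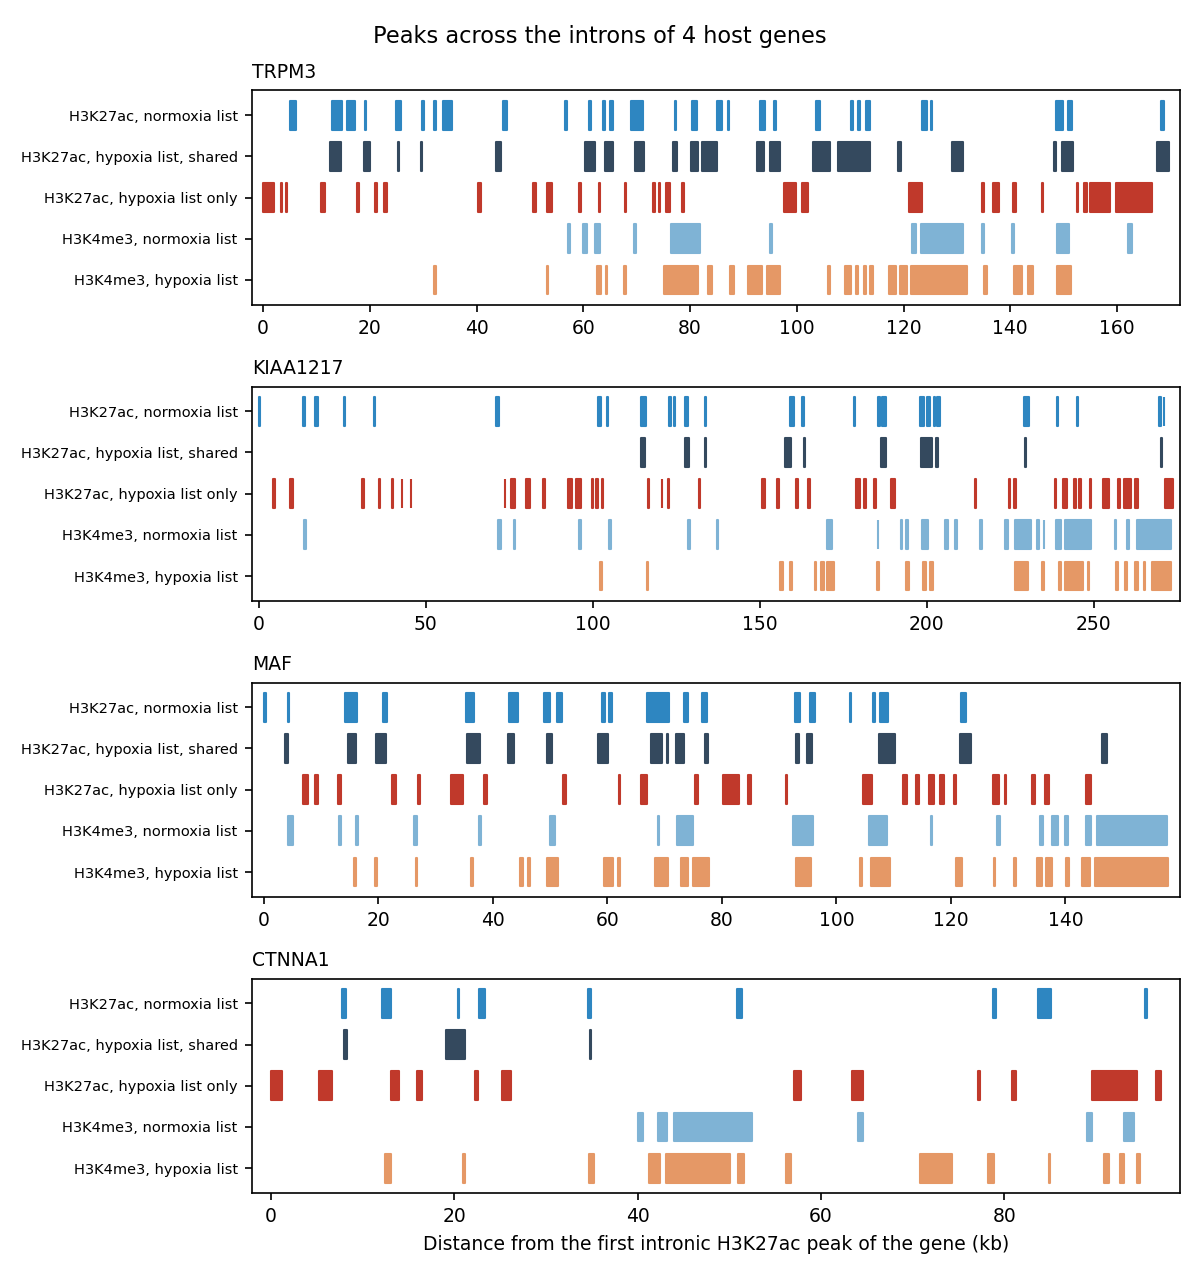
Positions of peaks in TRPM3, KIAA1217, MAF and CTNNA1 along each gene (horizontal axis, kb from the first intronic H3K27ac peak of the gene), in 5 tracks: hypoxia-only H3K27ac, shared hypoxia H3K27ac, normoxia H3K27ac, and H3K4me3 of each condition. Only intronic peaks are drawn for H3K27ac, the narrowest are drawn at the width of a line, and the 28, 41, 25 and 12 hypoxia-only peaks include stretches without a shared peak in KIAA1217 (before 114.526 kb) and CTNNA1 (after 34.953 kb). Both stretches held normoxia H3K27ac peaks, for example at 71.032 to 71.751 kb in KIAA1217 and 83.712 to 85.123 kb in CTNNA1.

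The other hosts of the 10 widest hypoxia-only peaks had varied functions. NECTIN3, a cell adhesion protein of adherens junctions, held one of 5133 bp in intron 7 of 7 (chromosome 1, 89536378 to 89541510), with no H3K4me3 in either list. None of the 9 intronic hypoxia peaks of NECTIN3 was shared, while 84.9% of all intronic hypoxia peaks were not shared. EFNB2, the membrane-bound ligand ephrin-B2, held one of 4626 bp (chromosome 1, 142522793 to 142527418) in intron 1 of 3. Of its 9 peaks, 8 overlapped H3K4me3. A 4096 bp peak lay in the membrane protein gene DCBLD2 and a 3840 bp peak in PXDN, a peroxidase that crosslinks collagen IV. The other wide ones were in the bHLH factor gene TCF12 (5086 bp), the secreted protease gene HTRA1 (4489 bp) and the RING finger gene RNF11 (4316 bp, no H3K4me3).

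Along the chromosomes some of the peaks formed runs. Runs were not counted for the other classes of peaks, so no comparison is given. When peaks with gaps of at most 10 kb were joined, the 12029 gave 7582 chains, of which 5141 held a single peak (42.7% of the peaks). Chains of 3 or more numbered 977 and held 32.9% of the peaks, and the 228 chains of 5 or more held 12.4%. The longest, with 17 peaks over 74.8 kb, lay in MSI2 (chromosome 19, 9026500 to 9101310). IGF1R followed with 14 over 68.7 kb, and chains of 13 lay in HIPK2, AMMECR1, FMNL2, ZEB2 and PRTG. FMNL2 is a formin that elongates actin filaments, and ZEB2 is a zinc finger repressor. Only 2441 of the 12029 peaks (20.3%) stood in an intron that also held a shared peak.

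H3K4me3 was not used to choose the regions. An H3K4me3 peak of either list overlapped 2350 of the 12029, or 19.5% (95% Wilson interval 18.8 to 20.3%). The share was 30.1% when peaks under 500 bp were left out of both lists, and 36.2% when the hypoxia list was reduced to its widest peaks, as many as in normoxia. With all peaks kept, the share was 54.2% (52.1 to 56.3%) for shared intronic peaks and 29.0% (27 to 31.1%) for normoxia-only intronic peaks, so the hypoxia-only peaks had the lowest of the 3. Hypoxia-only peaks elsewhere were close to them, with 17.7% for distal intergenic and 18.3% for exonic peaks. Of the overlapping peaks, 939 (40.0%) lay wholly inside an H3K4me3 peak. Within 1 kb of H3K4me3 the shares were 28.7% for hypoxia-only, 62.8% for shared and 42.2% for normoxia-only peaks.

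Width moved with this overlap in every class. Overlap was counted from 1 bp, and a wide peak has more chances to meet an H3K4me3 peak, so the 2 are tied. With H3K4me3 over at least 50% of the peak, the share of all hypoxia-only intronic peaks was 13.0%. Among hypoxia-only intronic peaks, 9.69% of those under 250 bp overlapped H3K4me3, 16.2% of those from 250 to under 500 bp, 21.8% from 500 to under 1000 bp, 40.8% from 1000 to under 2000 bp and 57.2% at 2000 bp or more. At each width the shared peaks had a higher share, from 32.8% in the narrowest to 73.3% in the widest class. The normoxia-only peaks, which are somewhat narrower than the hypoxia-only ones, had 23.1% in the narrowest class and 50.6% from 1000 to under 2000 bp. At 2000 bp or more there were only 2 of them. The hypoxia-only share was thus the lowest of the 3 in each class under 2000 bp too. In the class from 1000 to under 2000 bp its interval met that of the normoxia-only peaks.

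**Figure D5:**
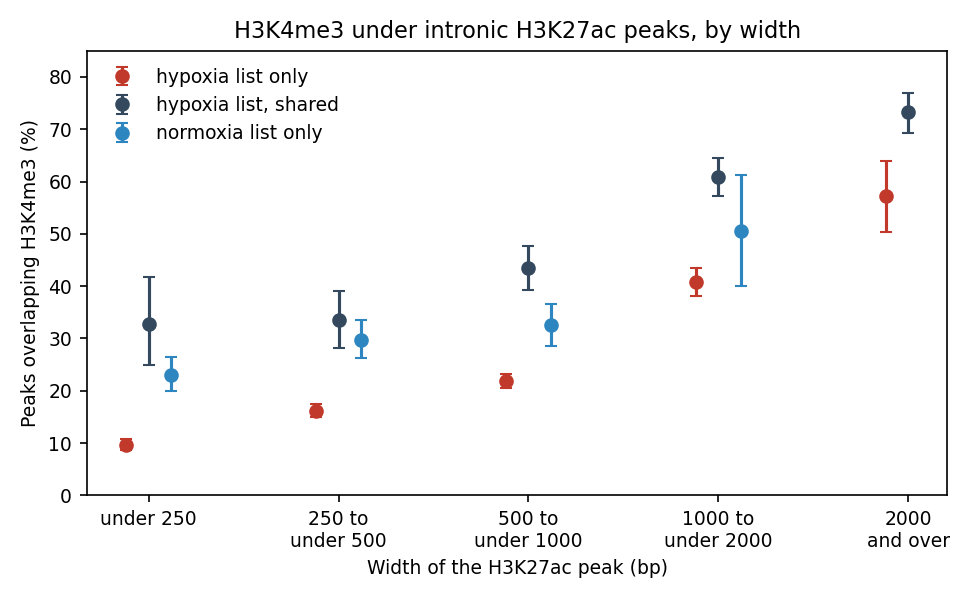
Share of H3K27ac peaks that overlap an H3K4me3 peak of either list (vertical axis, %; error bars, 95% Wilson intervals) by width class (horizontal axis, bp), for hypoxia-only, shared and normoxia-only intronic peaks. The hypoxia-only share climbs from 9.69% to 57.2% and lies below the shared and the normoxia-only share in every class drawn, where classes under 20 peaks are left out.

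The H3K4me3 at these peaks came from the hypoxia list more often than from the normoxia list. Of the 12029 peaks, 948 (7.88%) met H3K4me3 of the hypoxia list alone, 468 (3.89%) met that of the normoxia list alone and 934 (7.76%) met both. The ratio of hypoxia alone to normoxia alone was 2.03, and it was 2.58 for shared, 2.06 for intergenic hypoxia-only and 0.764 for normoxia-only intronic peaks. The hypoxia and normoxia H3K4me3 lists were of like length, with 24987 and 22288 peaks. Hypoxia-only and normoxia-only acetylation peaks thus leaned to opposite H3K4me3 lists, and shared peaks leaned to that of hypoxia.

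Hypoxia-only peaks with H3K4me3 differed from those without in place as well as width. Their median width was 644.5 bp against 400 bp, and 34.0% against 19.6% lay in a first intron. They lay nearer to an annotated start, at a median of 15.5 against 22.7 kb, and nearer to normoxia H3K27ac, at 6.36 against 17.0 kb. By intron rank the share over H3K4me3 went from 29.7% in the first intron to 24.9% in the second, 21.5% in rank 3 and 10.8% at rank 10 or above. The peaks over H3K4me3 were the wider, more promoter-near part of the set.

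The promoters of the 4263 host genes were often acetylated in both conditions. An H3K27ac peak within 3000 bp of the start was present in both lists for 39.9%, in the hypoxia list alone for 30.3%, in the normoxia list alone for 3.38% and in neither for 26.4%. Over all 14180 genes the shares were 30.8%, 30.8%, 3.96% and 34.4%. Host genes of shared intronic peaks had 52.3% in both lists. The share of promoters acetylated in hypoxia alone was therefore about the same in the host genes as in all genes. H3K4me3 stood at the promoter in both lists for 77.9% of the host genes and 69.9% of all genes.

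The lens genes for fiber structural proteins were thinly represented, though the counts were small. Of the 23 gene IDs for fiber structural proteins, 4 (17.4%) held a hypoxia-only intronic peak, below the 30.1% of all genes. Crystallin genes are compact, and gene length was not available to adjust for it. SPTBN1, the membrane skeleton protein beta-spectrin, held 9 of the 12 peaks, and 8 of these 9 overlapped H3K4me3. The beaded filament gene BFSP2 had 1 of 1528 bp, whose nearest start was CDV3, LGSN (lengsin, a glutamine synthetase relative of the lens) had 1 of 317 bp and CHMP4B, a membrane-remodelling ESCRT protein, had 1 of 288 bp. No hypoxia-only intronic peak fell in CRYAA or BFSP1, and neither had a shared or normoxia-only intronic peak. Their 7 and 9 normoxia H3K27ac peaks were counted in any annotation class.

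Of 21 lens transcription factor genes in the table, 8 (38.1%, beside 30.1% of all genes) held a total of 62 hypoxia-only intronic peaks, 25 of them in MAF. Of the intronic hypoxia peaks of the listed genes, 71.3% were hypoxia-only, beside 84.9% over all genes. MEIS2, a homeobox factor upstream of PAX6 in mouse, had 12, covering 9454 bp. EYA1, a transcriptional coactivator and phosphatase of eye development, had 7 and no assigned normoxia H3K27ac peak. The nearest normoxia peak lay 78814 bp from any of the 7. RXRA, a nuclear receptor, had 7. PAX6, the master regulator of eye formation, had none, and no shared or normoxia-only intronic peak either. Its 9 normoxia peaks were counted in any annotation class.

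For the HIF pathway itself, 3 of 13 genes (23.1%, beside 30.1% of all genes) held hypoxia-only intronic peaks. The acetyltransferase gene CREBBP, whose product CBP writes H3K27ac and assists HIFs, had 14, covering 7910 bp, beside 1 shared peak, and 6 of the 14 had CREBBP as their nearest start. Its relative EP300 had 3, and ARNT2, a partner subunit of HIFs, had 1. EPAS1, which encodes HIF-2 alpha, and EGLN3, a hydroxylase that marks HIFs for degradation, had none. EGLN3 had 1 shared intronic peak.

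Among textbook HIF targets, 14 of 37 genes (37.8%, beside 30.1% of all genes) held 48 hypoxia-only intronic peaks. VEGFA, the main signal for blood vessel growth, had 4, in introns 8, 6, 3 and 2 of 8 on chromosome 3, with widths of 628, 1431, 172 and 884 bp. They lay between 30776219 and 30786351, from 6458 to 12270 bp from the nearest normoxia peak. None of the intronic hypoxia peaks of VEGFA was shared, while 84.9% of all intronic hypoxia peaks were not shared. A single one of the 4, the 884 bp peak, touched H3K4me3, over 126 bp of the normoxia list.

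RORA, a nuclear receptor that HIF-1 induces, had 10 hypoxia-only peaks, 8 of them in the first of 10 introns. They covered 8820 bp of a 312 kb span, and the widest, 2071 bp (chromosome 10, 5280397 to 5282467), lay 57055 bp from the nearest normoxia peak. MXI1, a repressor of MYC targets, had 8 and the histone demethylase gene KDM4B had 7, with no shared peak in either. Over all genes, 84.9% of intronic hypoxia peaks were not shared. The mitophagy receptor gene BNIP3L had 1, of 404 bp in intron 3 of 7 (chromosome 22, 675391 to 675794), overlapping H3K4me3 of both lists. No such peak was found in PDK1, a kinase that closes mitochondria to pyruvate. The well-known targets therefore ranged from none to 10 peaks.

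Signaling genes were hosts at shares above the 30.1% of all genes, a difference that was not tested. The shares of these lists were not adjusted for gene length. In the FGF and receptor kinase list 13 of 23 (56.5%) held 48 peaks, of which 19 lay in IGF1R. FGFR2, a receptor through which FGF drives fiber differentiation, had 4, with 1 shared, and FGFR1 had none. The adaptor gene FRS2 and the RAS pathway inhibitor gene SPRED1 had 4 each, and SPRED1 had no assigned normoxia H3K27ac peak. H3K4me3 overlapped 43.8% of the 48 peaks, 12 of the 21 overlapping ones being those of IGF1R.

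In the BMP, TGF-beta, Notch and Wnt list, 25 of 36 genes (69.4%) held 70 peaks, with no more than 6 in a gene. The ligand gene TGFB2 and the receptor gene BMPR2 had 6 each, and the transcription factor genes TCF7L2 and SMAD3 had 5 each. None of the intronic hypoxia peaks of TGFB2, BMPR2 or TCF7L2 was shared, while SMAD3 had 3 shared ones. Over all genes, 84.9% of intronic hypoxia peaks were not shared.

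The cytoskeleton, adhesion and cell shape list had the largest share of hosts of the 17 lists, 35 of 40 genes (87.5%) with 194 peaks. Over all genes the share of hosts was 30.1%. Many of the listed genes are long and have more intron. Of their intronic hypoxia peaks, 79.5% (74.0 to 84.1%) were hypoxia-only, below the 84.9% over all genes. The list also had 50 shared and 41 normoxia-only intronic peaks. Beside ANK3 and PARD3, the neuronal adhesion gene NRCAM had 16 peaks, of which 10 overlapped H3K4me3. CDH2, N-cadherin, the main cadherin of fiber cells, had 15, covering 13125 bp, beside 10 shared and 2 normoxia-only. Of the intronic hypoxia peaks of CDH2, 60% were hypoxia-only.

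Autophagy and mitophagy were represented by 16 of 34 genes (47.1%, beside 30.1% of all genes) with 49 peaks. Gene length, which the table does not give, was not adjusted for in this or the other lists. RICTOR, a subunit of an mTOR complex, had 7, the starter kinase gene ULK1 had 6 and its partner gene AMBRA1 had 5. Of the genes for cell cycle exit and FOXO factors, 11 of 23 (47.8%, beside the same 30.1%) held 31 peaks. CDK6, a kinase of the entry into S phase, had 11 beside 5 shared, and RB1, the retinoblastoma gene, had 6 with none shared. Over all genes, 84.9% of intronic hypoxia peaks were not shared. FOXO3, a stress-responsive forkhead factor, had 3, all in intron 1 of 2 and all over H3K4me3, with widths of 321, 2000 and 1039 bp. It had more shared peaks (4) than hypoxia-only ones. CDKN1B, an inhibitor of cyclin-dependent kinases, had none, and no shared or normoxia-only intronic peak either. The 6 normoxia H3K27ac peaks assigned to it were counted in any annotation class.

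Genes for histone acetylation and methylation enzymes were hosts in 21 of 34 cases (61.8%, beside 30.1% of all genes), with 109 peaks. The deacetylase gene HDAC4 had the most, 15, none of them over H3K4me3. The demethylase relative JMJD1C had 10 and the deacetylase gene HDAC9 had 9. Immediate early and stress response genes were the opposite case, with 0 of 22, and they had no shared or normoxia-only intronic peak either. MYC, one of the 22, had 10 normoxia H3K27ac peaks, counted in any annotation class. Housekeeping genes held 6 peaks in 4 of 21 genes (19.0%), 3 of them in YWHAZ. Immediate early genes are short as a class, and the part of length was not tested.

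Markers of other cell types were hosts at shares of 20% to 28.6%, beside 30.1% of all genes, and the counts were small. Only markers with any peak in the table were counted. Hosts were 2 of 10 for lens epithelium (20%) and 3 of 13 for retina and neurons (23.1%). They were 3 of 11 for blood and endothelium and 3 of 11 for cornea and periocular mesenchyme (27.3% each). For pigment epithelium they were 2 of 7 (28.6%). SYT1, a calcium sensor of synaptic vesicles, had 8 and the blood cell factor RUNX1 had 6. RAX, OTX2, PECAM1 and TYR had none. Lists chosen with earlier results known and of unequal gene length do not allow a test of these shares.

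Some host genes had no normoxia H3K27ac peak assigned to them, which does not show that the mark was absent. Ranked by covered length, the first was LONP2, a peroxisomal protease, with 6 hypoxia-only peaks over 6350 bp in introns 7 to 14 of 15. TENM4, a teneurin of cell contact, had 8 covering 6097 bp, and TTC28 had 8 covering 5874 bp. SHOC2, a scaffold that promotes RAF activation, had 7. DACH1, a nuclear cofactor that works with EYA proteins, had 12 covering 5263 bp. The actin motor gene MYO9A and the cyclic nucleotide phosphodiesterase gene PDE10A had 9 each, and the unnamed gene ENSGALG00000048656 had 6. Of these 8 genes, 6 had an H3K27ac promoter peak in hypoxia alone, a state of 30.8% of all genes, and TENM4 and MYO9A had none. Choosing genes without an assigned normoxia peak largely sets this outcome, so it is a description and no finding.

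Peaks were also ranked by their number per 100 kb between a gene's outermost hypoxia-only peaks, among genes with 5 or more. In PPM1D, a phosphatase that turns off p53 signaling, 5 peaks stood within 5.22 kb of intron 3 of 5, a density of 95.9 per 100 kb, although the widest measured only 445 bp and 3 of the 5 were nearer to the start of BCAS3. METRNL, a secreted protein, had 6 within 12.5 kb, and FHL3, a LIM domain protein, had 6 within 13.0 kb. All 8 peaks of LARP1, which controls translation of ribosomal protein mRNAs, lay in a first intron, within 18.9 kb. RHEB, the small GTPase that activates mTOR complex 1, had 5, of which 4 overlapped H3K4me3. The others of the 8 most densely filled genes were the dynein regulator gene PAFAH1B1, the endocytosis gene EPS15L1 and ARHGEF12, an activator of RhoA, with 5, 5 and 7 peaks.

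Hypoxia-only peaks were 85.4% of intronic hypoxia peaks on chromosomes 1 to 5, 84.7% on 6 to 20 and 89.6% on Z. The lowest share, 77.4%, was that of the small chromosomes 21 to 33. These shares rest on the contrast that chose the regions and are a description. On the small chromosomes the peaks also lay nearest to annotated starts, at a median of 12.4 kb against 23.1 kb on chromosomes 1 to 5.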

How the data were processed

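CUT&RUN peaks for H3K27ac and H3K4me3 were taken from a deposited table with 1 list per mark and condition. Positions in bp, the annotation text, the nearest gene and the distance to its start are the deposited values, per the file headers, and no signal, score or library is given. Without versions or roles, the submitters' processing notes list MACS2, ChIPseeker, STAR and DESeq2 and the build galGal6. The peak threshold, the control and whether the authors pooled replicates are not given in the sources used here.

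The 124414 lines were reduced to unique intervals per list. Starts were read as 0-based and are printed 1-based. The host gene is the one named in the intron annotation, and intron rank is that of the annotated transcript. Promoter peaks lie within 3000 bp of a start. Overlap means at least 1 bp and was checked against bedtools 2.31.1 and on simulated intervals. Python 3.11.15, pandas 2.3.3, scipy 1.17.1 and matplotlib 3.10.9 were used. Wilson intervals (95%) cover counting only, since lists without libraries allow no test. With one list per group, peaks and genes are not replicates.

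The regions, the 17 gene lists and the named genes were chosen with earlier results of these data known. Named genes are the 15 with most hypoxia-only peaks, hosts of the 10 widest, the 8 with the longest covered length among genes without a normoxia peak, the 8 most densely filled among genes with 5 or more, up to 4 per list, and 15 chosen in any case. Some of these genes are not reported here. Names outside this rule, in the chains, the widest peaks and the marker lists, were chosen after their values were seen. Density was planned per gene length. The table gives none, so the span between a gene's outermost peaks was used, chosen after the table was seen. Lists were counted by gene ID, and 14 of the 422 listed genes are in more than 1 list. No sequence was printed because no genome of this build was used here.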

Additional observations from a re-analysis of the deposited data

How the results depend on the processing

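Counts within 1.5 times the reported count, and other values inside the 95% interval of the reported one, were not counted as moved. By that rule, which is wider for counts, 39 values moved and are given here. Requiring 50% reciprocal overlap gave a hypoxia-only share of 96.2%, a median width of 483 bp, 23.3% in first introns, 23.5% over H3K4me3 and 38.1% of host genes with 3 or more peaks. Keeping peaks over 1000 bp from normoxia H3K27ac gave 77.8%, 429 bp, 18.0% over H3K4me3 and 33.4% of host genes. Cutting the hypoxia list to its 15511 widest peaks, the length of the normoxia list, gave 2608 peaks, 65.3%, 1071 bp, 25.3% in first introns, 36.2% over H3K4me3, 1595 host genes, 14.9% with 3 or more and 18.6% without a normoxia peak. Peaks of at least 500 bp gave 5862, 82.9%, 791 bp, 24.3%, 30.1%, 2744, 24.6% and 42.4% in the same order. With H3K4me3 counted within 1000 bp, over at least 50% of the peak, or from the hypoxia or normoxia list alone, the share was 28.7%, 13.0%, 15.6% or 11.7%. Genes with 5 or more peaks were 16.1%. Chosen after seeing the data, peaks over 10000 bp from a start gave 18.7% in first introns, 17.4% over H3K4me3, 28.6% without a normoxia peak and a median distance of 28274 bp. Peaks whose nearest start was the host gene gave 28.5%, 21.3%, 28.6% and 19338 bp, with 30.6% of host genes at 3 or more. Apart from each alternative's own construction, the cause of these shifts was not tested. A minimum distance of 3000 bp and annotation in every line changed no value, because intronic peaks begin at 5001 bp and each has 1 annotation. Counting normoxia peaks by gene body was not run, since the table gives no gene ends. No paired analysis was possible because each list carries no library, and for the same reason no replicate could be left out. Depth is unknown, and the hypoxia list is 2.95 times as long as the normoxia list.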
